A study of Rattus norvegicus with 4 samples.

Results

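The 10 genes described here encode inhibitor of DNA binding (ID) proteins, SMAD proteins and receptors of bone morphogenetic protein (BMP) signaling. They were Id1, Id2, Id3 and Id4, then Smad6, Smad7 and Smad9, then Bambi, Bmpr1a and Bmpr2, 10 of the 23360 gene symbols listed. The genes were chosen by name, but with the difference between 3D and 2D culture in these same samples already known. That difference is therefore a description for the 10 genes, and no test of it is given for any single one of them. Messenger RNA was measured in INS-1 832/3 cells, a clonal rat insulinoma line that secretes insulin, carries a human insulin gene and is kept under Geneticin. The 2D group was standard monolayer culture, and the 3D group was cells bioprinted in GelXA LAMININK 411 hydrogel, a light-cured gelatin methacrylate blend with laminin-411. Each group had 2 cultures, numbered replicate 1 and 2, all taken at passage 3 after 5 days in the same medium. The hydrogel, the printing and the light curing came together in the 3D group, so their parts cannot be told apart.

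BMP ligands bind pairs of type I and type II receptor kinases, which phosphorylate SMAD1, SMAD5 and SMAD9. These join SMAD4, enter the nucleus and switch on target genes, of which the ID genes are the best known. ID proteins have a helix-loop-helix but no DNA-binding basic region, so they pair with E proteins and keep them from acting with tissue-specific basic helix-loop-helix (bHLH) factors such as NEUROD1. SMAD6, SMAD7 and the pseudoreceptor BAMBI are induced by the pathway and dampen it. In the pancreas, BMPR1A is known as a receptor of beta cells. The ID genes also respond to growth factors and to other members of the TGF-beta family.

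Values are TPM, transcript abundances that the authors scaled for transcript length and to a sum of 1000000 per sample, and which were summed here per gene symbol. TPM do not keep the sequencing depth, so values carry no counting interval. Fold changes are log2 differences, 3D minus 2D, of log2(TPM + 1) after scaling between samples, which understates the change of genes at low TPM. Standard errors (SE) come from limma, fitted over the 11960 genes whose TPM averaged 1 or more over the samples, the filter used throughout. The exact permutation test of a single gene, 2 cultures against 2, cannot go below a two-sided p of 0.33. The beta-cell marker list summed to between 147279 and 170094 TPM in the 4 samples, mostly Ins1, and 7 of its 8 genes were in the files. Of these, Ins2 fell from 13289 ± 72.2 to 9141 ± 261 TPM (SD, n = 2, adjusted p = 0.0095 in limma). Slc2a2 rose from 473 ± 26.6 to 640.0 ± 19.7 TPM (SD, n = 2, adjusted p = 0.0075 in limma). The others, Ins1, Chga, Nkx6-1, Slc30a8 and Iapp, had adjusted p from 0.14 to 0.70 in limma. The defining endothelial and blood markers Cdh5, Tie1, Emcn and Ptprc were listed at 0 in all samples. Summed endothelial markers lay at 17.1 and 18.3 TPM in 2D and 17.8 and 20.4 TPM in 3D, mostly Esam, fibroblast markers between 180.0 and 214 TPM, nearly all Thy1, and leukocyte markers at 1.47 TPM or less, mostly Cd68. Kdr had 0.965 and 1.00 TPM in 2D and 1.27 and 1.48 TPM in 3D, and Cd68 had 0.789 and 0.516 TPM in 2D and 0.863 and 1.45 TPM in 3D, both higher in each 3D culture. The part of such cells in the values below was not tested.

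Sequence upstream of 4 of the genes is shown because Id1, Id3, Id4 and Smad9 stood well above their 2D level in both 3D cultures. These are the 250 bases before each gene's listed start, 5′ to 3′ on the gene's strand, from RefSeq in the build GRCr8, which held such a window for 9 of the 10 genes. The windows lie at chr3:161671314-161671563 (plus strand) for Id1, chr5:153656041-153656290 (plus strand) for Id3, chr17:16598294-16598543 (minus strand) for Id4, chr2:141106418-141106667 (plus strand) for Smad9. Capitals mark matches on either strand to GGCGCC, a GC-rich motif that BMP-type SMADs bind, to CAGAC, the core of the SMAD binding element, or to TATAAA, the TATA box.
Id1: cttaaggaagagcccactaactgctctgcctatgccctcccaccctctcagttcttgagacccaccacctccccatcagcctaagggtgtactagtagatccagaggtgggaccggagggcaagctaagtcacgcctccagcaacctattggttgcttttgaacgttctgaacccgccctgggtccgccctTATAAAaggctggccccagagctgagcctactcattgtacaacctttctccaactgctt
Id3: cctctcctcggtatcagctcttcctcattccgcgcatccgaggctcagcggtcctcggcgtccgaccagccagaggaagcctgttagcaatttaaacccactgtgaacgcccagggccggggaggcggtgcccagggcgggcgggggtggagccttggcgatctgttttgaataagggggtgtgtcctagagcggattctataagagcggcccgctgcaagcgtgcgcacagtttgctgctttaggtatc
Id4: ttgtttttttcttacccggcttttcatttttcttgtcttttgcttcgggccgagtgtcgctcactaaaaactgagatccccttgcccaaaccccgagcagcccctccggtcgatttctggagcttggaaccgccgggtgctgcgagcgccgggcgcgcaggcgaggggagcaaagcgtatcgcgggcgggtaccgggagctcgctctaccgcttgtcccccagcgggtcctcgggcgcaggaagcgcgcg
Smad9: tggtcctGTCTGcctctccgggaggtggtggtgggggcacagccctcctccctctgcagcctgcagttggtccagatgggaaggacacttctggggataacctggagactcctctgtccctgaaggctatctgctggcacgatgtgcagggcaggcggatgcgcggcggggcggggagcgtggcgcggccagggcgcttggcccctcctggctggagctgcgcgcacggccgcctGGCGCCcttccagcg
The Id1 window held TATAAA from base -59 and neither SMAD motif. No match to the 3 motifs was found in the Id3 window or in the Id4 window. Bases outside these 250 were not searched, so nothing is read from the lack of a match. The Smad9 window held GGCGCC from base -15 and CAGAC, on the other strand, from base -243. Of the other members, GGCGCC was found in Bambi from base -74 and in Smad7 from bases -96 and -36, and in no window of Id2, Bmpr1a or Bmpr2. None of these windows held CAGAC, and TATAAA was found only in Bmpr1a, from base -233. Among all 33469 windows of that length, 8.69% held GGCGCC, 42.9% held CAGAC and 12.9% held TATAAA. Both SMAD motifs can share a base with each other, but no 2 matches in the windows shown overlap, and a match is a run of letters, not a measured site. The share of G and C was 54.8% in Id1, 61.2% in Id3, 62.8% in Id4 and 70.0% in Smad9, against a median of 51.2% over all windows. It was 72.4% in Bambi and 78.0% in Smad7, the other members with GGCGCC, and 62.8% in Id2, 28.4% in Bmpr1a and 61.2% in Bmpr2.

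Of the 4 ID genes, 3 were well expressed and each was at least 2-fold higher in 3D culture by the ratio of mean TPM. Id1 had 22.1 and 19.2 TPM in the 2D cultures and 50.5 and 50.9 TPM in the 3D cultures. The 3D values of Id1 nearly coincided and lay far above both 2D values, with a ratio of means of 2.46 and a log2 fold change of 1.22 (SE 0.066). Id3, a close paralogue of Id1 that is often regulated with it, had 18.6 and 18.8 TPM in 2D and 38.0 and 41.5 TPM in 3D. Here the 2D cultures were the tighter pair, and the log2 fold change was 1.01 (SE 0.069). Id4, which can oppose other ID proteins, had 8.70 and 13.9 TPM in 2D and 34.8 and 39.3 TPM in 3D. It had the highest log2 fold change of the 8 genes over the filter, 1.62, and the widest SE, 0.22. Its 2D cultures differed more than those of the other well expressed ID genes. The log2 fold change of Id4 was 1.27 without 2D replicate 1 and 1.96 without 2D replicate 2. Without 2D replicate 1, Smad9 had a higher log2 fold change than Id4, 1.43. By ratio of means, too, Smad9 stood higher, at 3.38 against 3.28 for Id4. Id2 was low, at 1.62 and 1.13 TPM in 2D and 2.03 and 2.43 TPM in 3D, a log2 fold change of 0.43 (SE 0.14). The groups did not overlap in Id2, but the gap between them was smaller than the spread within 2D. In bulk RNA, more cells with an active gene and more RNA per cell cannot be told apart.

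**Figure D1:**
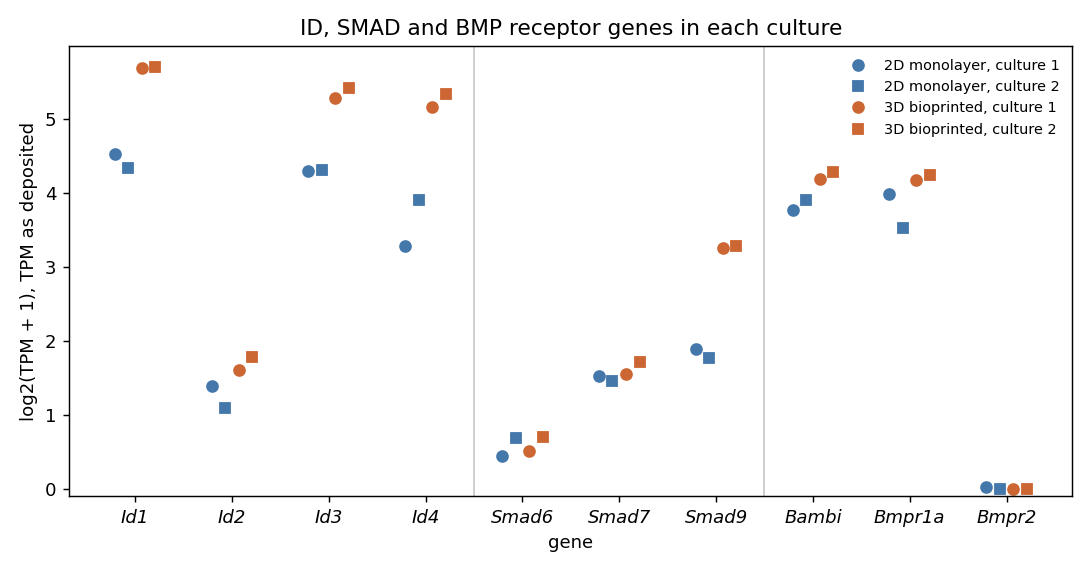
Level of each of the 10 genes in each culture, as log2(TPM + 1) of deposited TPM. Blue points are the 2D and orange points the 3D cultures, circles replicate 1 and squares replicate 2. The 3D cultures lie above both 2D cultures for 8 genes, with wide gaps for Id1, Id3, Id4 and Smad9. Smad6 overlaps and Bmpr2 lies at 0 or next to it. Over all genes tested, 37.3% were separated in that direction after scaling, and the genes shown were chosen with this comparison known.

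TPM are per length, so levels can be set against each other, and the order was Id1, Id3, Id4, then Id2 in all 4 cultures. The neighbours Id3 and Id4 overlapped in 3D, and in 2D replicate 2 Id1 lay above Id3 by less than the difference between the 2D cultures in Id1. The summed ID level was 50.9 and 53.0 TPM in 2D and 125 and 134 TPM in 3D. Id1 took 43.3% and 36.3% of this sum in the 2D cultures and 40.3% and 37.9% in the 3D cultures, so its share overlapped between the groups. The share of Id3 was 36.4% and 35.4% in 2D and lower in both 3D cultures, 30.3% and 30.9%. Id4 made up 17.1% and 26.2% in 2D and 27.8% and 29.3% in 3D. The difference in the mean share of Id4, 6.89 percentage points, was about the SD of the 2D cultures, 6.45, and fell to 2.33 without 2D replicate 1. Id2 held between 1.62% and 3.17% in all cultures.

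**Figure D2:**
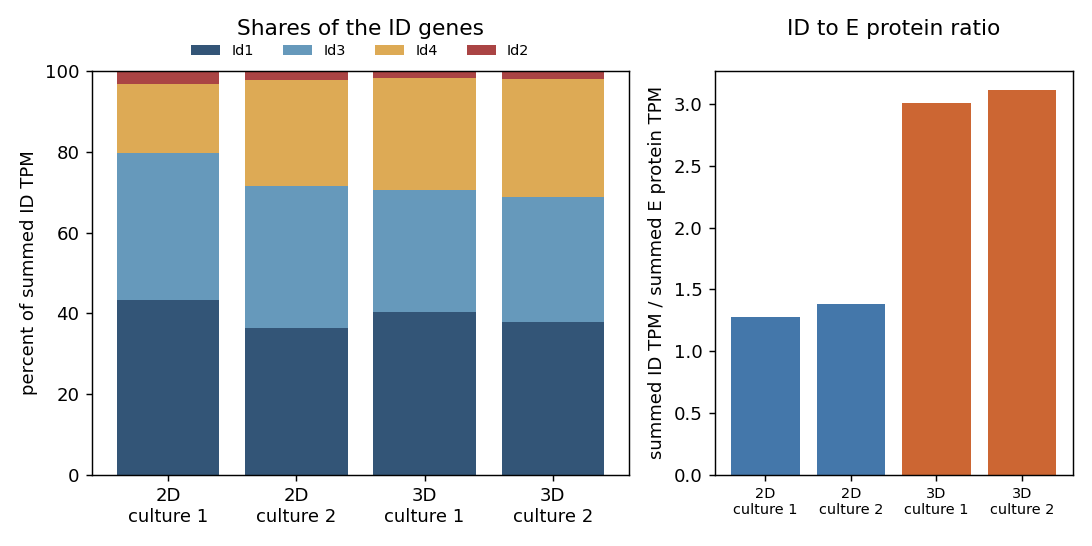
Left, percent of the summed ID TPM taken by each ID gene in each culture. Right, summed ID TPM divided by the summed TPM of the E protein genes, which is 1.27 and 1.38 in the 2D cultures and 3.01 and 3.11 in the 3D cultures.

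The E proteins are the partners that ID proteins bind, and their summed level differed far less between the groups than that of the ID genes. Tcf3, the gene of E12 and E47, had 29.4 and 29.5 TPM in 2D and 29.4 and 30.5 TPM in 3D. Tcf12, the gene of HEB, had 10.6 and 8.93 TPM in 2D and 12.2 and 12.6 TPM in 3D, and Tcf4 was listed at 0 in all samples. Summed over these 3 genes, E protein transcripts had 40.0 and 38.5 TPM in 2D and 41.6 and 43.1 TPM in 3D. The ratio of summed ID to summed E protein TPM was 1.33 ± 0.073 in 2D (SD, n = 2) and 3.06 ± 0.070 in 3D (SD, n = 2). Tcf4 enters this ratio at its listed 0, which can be a failed estimate, so the ratio rests on Tcf3 and Tcf12 and may stand too high in both groups.

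Among the SMAD genes, the receptor-activated Smad9 and the inhibitory Smad6 and Smad7 differed in pattern. Smad9, which encodes a weak activator of the BMP branch that is itself a BMP target, had 2.70 and 2.41 TPM in 2D and 8.50 and 8.76 TPM in 3D. Its groups were far apart for so low a level, with a ratio of means of 3.38 and a log2 fold change of 1.40 (SE 0.085). A pseudocount of 0.1 gave Smad9 a log2 fold change of 1.68. Smad7, whose protein blocks receptors of both the TGF-beta and BMP branches, had 1.88 and 1.75 TPM in 2D and 1.92 and 2.27 TPM in 3D. The lowest 3D value of Smad7 lay just above the highest 2D value, and the log2 fold change of 0.11 was smaller than its SE of 0.12. Smad6, which acts mainly on the BMP branch, was below the filter and overlapped between the groups, at 0.363 and 0.609 TPM in 2D and 0.419 and 0.623 TPM in 3D. Neither inhibitory SMAD gene thus differed as much as Id1, Id3 and Smad9, which were more than 2-fold higher in the same 3D cultures. At the low levels of Smad6 and Smad7, a smaller rise cannot be told apart from none.

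The receptor genes over the filter, Bambi and Bmpr1a, had smaller log2 fold changes than Id1, Id3 and Id4. Theirs were close to that of Id2, 0.43. Bambi, which encodes a type I-like receptor without a kinase, had 12.6 and 13.9 TPM in 2D and 17.2 and 18.4 TPM in 3D. The groups were apart, with a log2 fold change of 0.36 (SE 0.090). Bmpr1a, the type I receptor ALK3, had 14.8 and 10.5 TPM in 2D and 17.0 and 17.8 TPM in 3D. The 2D cultures of Bmpr1a differed by more than the gap between the groups, and its log2 fold change of 0.41 (SE 0.13) was 0.21 without 2D replicate 2. Bmpr2, the type II receptor dedicated to BMPs, was listed at 0.017 TPM in 2D replicate 1 and at 0 in the other 3 samples. The files list a single transcript for each of the 10 genes except Id2, which has 2, and ENSRNOT00000085925.1 of Id2 was at 0 throughout. A listed 0 can be a failed estimate, so nothing is read from it about the receptor.

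In all, 8 of the 10 genes were over the filter, and in these 8 both 3D cultures lay above both 2D cultures after scaling. Over all genes tested, 37.3% were separated in that direction. Since the genes were chosen with this comparison known, nothing is read from this count. Ranked by log2 fold change from the highest, Id4 stood at place 46, Smad9 at 71, Id1 at 118 and Id3 at 223 of 11960. Places for the other members were 1519 for Id2, 1621 for Bmpr1a, 1955 for Bambi and 4421 for Smad7. By mean TPM over the 4 samples, Id1 was at percentile 85.8 of the listed genes, Id3 at 83.2 and Id4 at 80.6, and Smad9 at 60.4.

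**Figure D3:**
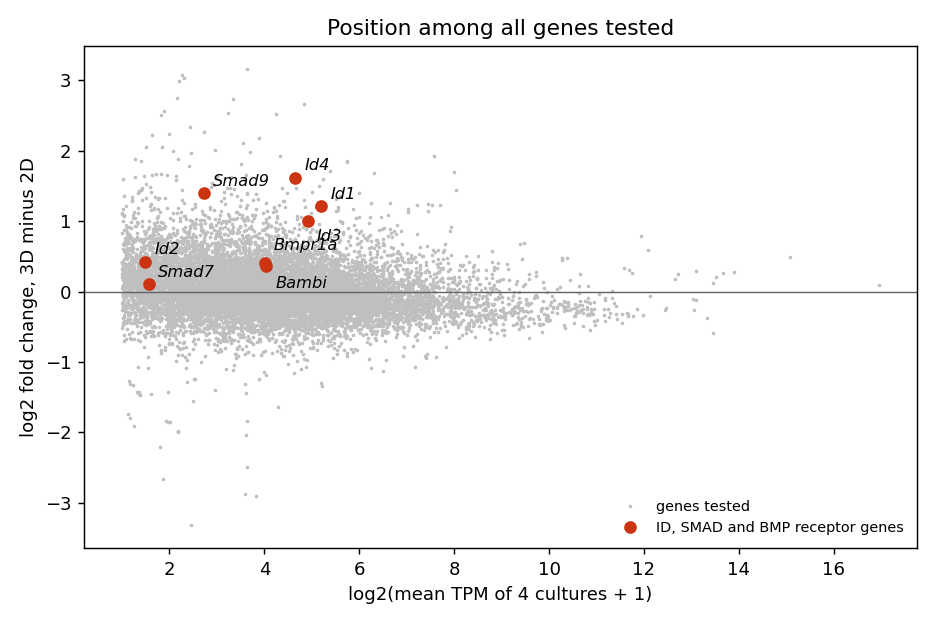
Log2 fold change, 3D minus 2D, against log2(mean TPM + 1) for the 11960 genes tested (grey), with the 8 members over the filter in red. Id4, Smad9, Id1 and Id3 lie at 1.01 or higher, Id2, Bmpr1a and Bambi between 0.36 and 0.43, and Smad7 at 0.11, within the dense band of genes.

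The rest of the pathway was read from 77 further genes in 7 classes, listed by known role but with earlier results of these data known. Their calls are therefore a description of these lists. Of the 77 genes, 38 were over the filter and 19 were listed at 0 in all samples. With p-values from limma adjusted over the whole table (Benjamini-Hochberg) and called where under 0.05, 7 of the 38 rose and 5 fell. The share called was 31.6%, below the 38.0% of all genes tested, and over all genes tested 18.5% rose and 19.5% fell. The median log2 fold change of the 38 genes was 0.081, against -0.0031 over all genes tested. Most of these 12 calls were weak. Without 2D replicate 2 there were 4, without 3D replicate 1 there was 1, and without 3D replicate 2 there were 2, while without scaling between samples 5 rose and 0 fell.

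Of 14 ligand genes, 2 were over the filter and 10 were listed at 0 in all samples, among them Bmp4, Bmp6 and Bmp7. Bmp2, a ligand of BMPR1A, had 2.47 and 1.96 TPM in 2D and 4.29 and 3.45 TPM in 3D. It rose by a log2 fold change of 0.57 (SE 0.14, adjusted p = 0.0260 in limma), which ended with 4 of 11 alternatives, with adjusted p from 0.0101 to 0.138. Bmp3, an antagonistic ligand and the most abundant of the class, overlapped between the groups, at 5.48 and 4.66 TPM in 2D and 5.43 and 5.63 TPM in 3D. Of 16 extracellular antagonists, 5 were over the filter and 0 were called by limma in either direction, nor did the unadjusted 95% interval of any of the 5 leave out 0. Nbl1, the most abundant, had 27.1 ± 3.58 TPM in 2D and 25.2 ± 0.652 TPM in 3D (SD, n = 2), and Nog, the gene of noggin, was at 0.310 TPM or less in all samples.

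None of the 5 other receptors and coreceptors over the filter was called in limma, with adjusted p from 0.0625 to 0.523. The unadjusted 95% interval left out 0 for 2 of them, Acvr2a and Rgma, which went in opposite directions. Rgma was lower in 3D, at 1.36 and 1.43 TPM against 2.05 and 1.91 TPM in 2D (log2 fold change -0.34, adjusted p = 0.0625 in limma). Of the other BMP type I receptor genes, Bmpr1b and Acvrl1 were listed at 0, and Acvr1 had a lower level than Bmpr1a, at 5.87 ± 0.087 TPM in 2D and 5.59 ± 0.403 TPM in 3D (SD, n = 2). The type II receptor genes Acvr2a and Acvr2b, whose products also bind BMPs, were present. Acvr2a had 4.25 and 3.11 TPM in 2D and 5.06 and 5.08 TPM in 3D (adjusted p = 0.0709 in limma for a log2 fold change of 0.35), and Acvr2b had between 1.12 and 1.39 TPM. The coreceptor gene Rgmb was the most abundant of the class, with 8.92 ± 1.76 TPM in 2D and 10.7 ± 0.292 TPM in 3D (SD, n = 2), adjusted p = 0.198 in limma, or 0.0378 without 2D replicate 1.

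Of the 5 other SMAD genes, 2 rose. Smad4, the shared partner, had 33.4 and 26.1 TPM in 2D and 38.9 and 39.9 TPM in 3D (log2 fold change 0.36, SE 0.098, adjusted p = 0.0359 in limma). Smad5, a mediator of the BMP branch and the most abundant SMAD gene in 3D, had 36.9 and 29.6 TPM in 2D and 42.2 and 42.8 TPM in 3D (log2 fold change 0.31, SE 0.089, adjusted p = 0.0420 in limma). In both genes 2D replicate 2 was the lowest sample, and without it the adjusted p in limma was 0.0520 for Smad4 and 0.0713 for Smad5, with log2 fold changes of 0.23 and 0.19. Both calls also ended when either 3D culture was left out, with no filter, and with empirical Bayes without trend. Smad4 was called in 7 of 12 alternatives and Smad5 in 6 of 12. Smad1 had 18.6 and 19.8 TPM in 2D and 22.6 and 23.7 TPM in 3D (adjusted p = 0.0754 in limma). Smad9 therefore remained the least abundant of the 3 BMP-branch SMAD genes in each culture, and the one with the largest log2 fold change of them.

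Of 13 intracellular negative regulators over the filter, 1 rose and 3 fell. The unadjusted interval left out 0 for 6 of the 13. Besides the 4 called genes, these were Ski and Ctdsp2, both higher in 3D. Skil, which encodes the corepressor SnoN, had 6.95 and 4.48 TPM in 2D and 8.73 and 8.80 TPM in 3D (log2 fold change 0.53, SE 0.16, adjusted p = 0.0497 in limma), and it was called in 5 of 12 alternatives. Its log2 fold change was 0.29 without 2D replicate 2 and 0.76 without 2D replicate 1. Fkbp1a, whose product FKBP12 holds type I receptors inactive, fell from 267 and 256 TPM to 234 and 234 TPM (log2 fold change -0.20, adjusted p = 0.0312 in limma). Of the SMAD phosphatase genes, Ctdsp1 and Ctdspl fell by 0.23 and 0.28 on the log2 scale (adjusted p = 0.0387 and 0.0403 in limma). These 3 falls were called in 6, 5 and 4 of 12 alternatives, and in none of the 3 without scaling between samples. Ctdsp2, a SMAD phosphatase gene more abundant than Ctdsp1 and Ctdspl, went the other way. It had 55.8 and 46.1 TPM in 2D and 61.6 and 63.2 TPM in 3D (log2 fold change 0.25, adjusted p = 0.0538 in limma). Ski had 10.2 and 9.72 TPM in 2D and 12.0 and 12.2 TPM in 3D. Its log2 fold change was 0.22 (adjusted p = 0.0514 in limma). Smurf1 and Smurf2, ubiquitin ligases that act on SMADs and receptors, overlapped between the groups.

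Of 10 other genes known as BMP targets, 3 were over the filter, and Msx1 and Msx2 were listed at 0. Hes1, a repressor better known as a Notch target, had 2.64 and 2.91 TPM in 2D and 12.5 and 9.89 TPM in 3D. It rose by a log2 fold change of 1.64 (SE 0.13, adjusted p = 0.0037 in limma), and was called in all 12 alternatives. Junb, an AP-1 subunit also induced by many growth factors, had 15.1 and 16.4 TPM in 2D and 35.2 and 33.1 TPM in 3D (log2 fold change 1.03, SE 0.086, adjusted p = 0.0037 in limma), and was called in 11 of 12 alternatives, the exception being without 3D replicate 1 (adjusted p = 0.0525). The log2 fold changes of Hes1 and Junb lay in the range of those of Id1, Id3, Id4 and Smad9, or just above it. Dlx5, at 1.28 TPM or less on average, was not called (adjusted p = 0.115 in limma).

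Of the bHLH genes over the filter, 1 of 5 rose and 2 fell. Tcf12 rose by a log2 fold change of 0.29 (SE 0.081, adjusted p = 0.0415 in limma). Bhlha15, the gene of the secretory-cell factor MIST1, had 16.5 and 14.5 TPM in 2D and 10.5 and 13.3 TPM in 3D (log2 fold change -0.40, SE 0.11, adjusted p = 0.0396 in limma). Tcf12 was called in 6 of 12 alternatives and Bhlha15 in 4 of 12. Without 3D replicate 1 the log2 fold change of Bhlha15 was -0.25. Neurod1, the most abundant bHLH gene of the list and an activator of insulin transcription, had 70.2 and 55.8 TPM in 2D and 66.2 and 67.5 TPM in 3D, and the groups overlapped.

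**Figure D4:**
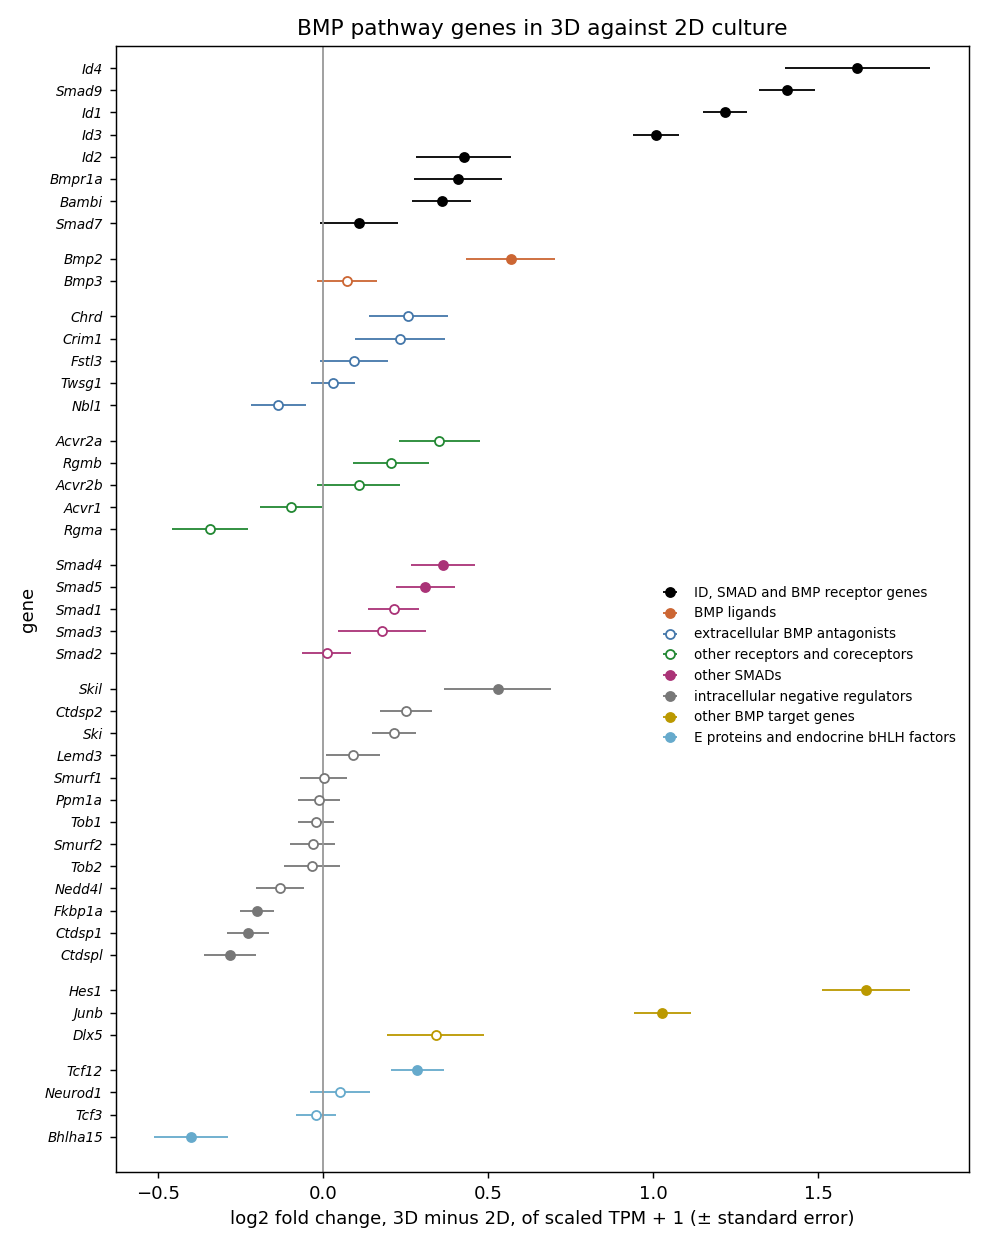
Log2 fold change, 3D minus 2D, with its standard error for the 8 members over the filter (top, black, drawn filled without a test) and other pathway genes over the filter, by class. For the other genes, filled points had an adjusted p below 0.05 in limma and open points had not. Hes1 at 1.64 and Junb at 1.03 stand apart from the other pathway genes drawn, which lie between -0.40 and 0.57.

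Across the 4 samples, the genes whose pattern was nearest to that of Id1 were Dusp4, Il1r1, Gcnt2, Btbd8 and Klrd1. Nearness was the root mean square difference of centred log2 values among the 7612 genes that averaged 10 TPM or more, and lay between 0.042 and 0.074 for these 5. Dusp4, a phosphatase of MAP kinases, had 7.14 and 6.25 TPM in 2D and 18.4 and 18.4 TPM in 3D. Il1r1, the interleukin-1 receptor, had 11.1 and 10.2 TPM in 2D and 25.3 and 25.6 TPM in 3D. With 4 samples in 2 groups, such likeness is mostly a like difference between the groups.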

How the data were processed

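Messenger RNA was sequenced in 2 monolayer and 2 bioprinted cultures, grouped and numbered by the sample titles. Per the submitters' processing notes and methods, the authors checked single-end reads with FastQC 0.11.8 and quantified transcripts in Salmon 1.2, using rn4 plus the gene of human insulin. They deposited the results as TPM with decimal commas. The other unit named here, log2, was computed from the deposited TPM and is not in the files. Each sample summed to 1000000 TPM, with 19355 to 19959 transcripts above 0. TPM keep no counts, so the DESeq2 test of the methods was not repeated.

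TPM were summed per symbol, genes with a mean of at least 1 were kept, and samples were scaled by trimmed means of M values, unweighted, with 30% (M) and 5% (A) cut from both tails, giving factors from 0.960 to 1.02. log2(TPM + 1) was fitted with limma 3.58.1 in R 4.3.3 (empirical Bayes with an intensity trend), with Benjamini-Hochberg adjustment over 11960 genes. Steps were tested on simulated data. Alternatives were the scaling, filter, pseudocount, replicate block, trend, transcript choice, threshold and each culture left out.

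The members, the pathway and marker lists and the rules for naming genes were chosen with earlier results of these data known. Pathway genes were named where called or most abundant in their class, and others, such as Smad1, Acvr2a and Smurf1, for their role after their values were seen, and genes like Id1 as the 5 nearest with a mean TPM of at least 10. The values of 1 pathway gene that the rule chose are not reported here. Same-numbered cultures did not deviate together (correlation -0.0060 across genes), so the numbers were not taken as pairs.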

Additional observations from a re-analysis of the deposited data

How the results depend on the processing

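All 94 log2 fold changes of the 8 members over the filter under the alternatives stayed above 0, and 89 moved by less than the spread between replicates. The 8 members with both 3D cultures above both 2D cultures became 7 with no filter, where Smad7 overlapped, and 6 with a mean TPM of at least 5, where Id2 and Smad7 were not tested. Of 190 values of the 16 pathway genes that the naming rule chose, 63 lost their call, 1 gained it and 0 of those called changed sign. The count of pathway genes called, 12, was 5 without scaling, 7 with no filter, 7 with the highest transcript of each symbol and 2 at an adjusted p below 0.01, and 1 to 11 with a culture left out. The count over all genes, 4541, was 1418 at an adjusted p below 0.01 and 136 to 4515 with a culture left out, lowest without 3D replicate 1. Such fits assume that the lone culture of a group varies like the others, and have fewer samples. The difference in the share of Id4 ran from 2.33 to 11.5 percentage points with a culture left out, a check added after seeing the data. With the replicate number as a block, 4814 genes and 11 pathway genes were called, and the calls of Ctdsp1 (adjusted p = 0.0523) and Fkbp1a (0.0569) ended. With 2 cultures per group, precision is limited to their spread, and TPM allow no detection limit.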

Other observations

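Further modulators of BMP and activin signaling lay below the expression filter and were picked out after their values had been seen. Fst, the gene of follistatin, which binds activins and some BMPs, had 0.074 and 0.040 TPM in the 2D cultures and 0.556 and 0.695 TPM in the 3D cultures. Tgfbr3, the coreceptor betaglycan, had 0.459 and 0.383 TPM in 2D and 0.960 and 0.984 TPM in 3D. In both genes the groups did not overlap, and no test was made at these levels.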
